A study of Homo sapiens with 16 samples.

Results

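The genes described here encode the enzymes that hydroxylate and crosslink collagen: LOX, LOXL1, LOXL2, LOXL3 and LOXL4 of the lysyl oxidase family, P4HA1 and P4HA2 of the prolyl 4-hydroxylases, and PLOD1, PLOD2 and PLOD3 of the lysyl hydroxylases. They were chosen by family membership, not by their measured values, and are 10 of the 58735 genes in the count table. Poly(A) RNA was sequenced from 16 libraries of 4 human breast cancer cell lines, forming 8 groups of 2 libraries. Both HCC1806 and BT474 were grown as flat monolayers and as spheroids, rounded cell aggregates, collected on days 10 and 20 after seeding, while CAL148 and ZR-75-30 were grown as monolayers only. HCC1806 and CAL148 are triple-negative lines, which lack estrogen receptor, progesterone receptor and amplified HER2. BT474 is a luminal line with amplified HER2, and ZR-75-30 is also positive for HER2 (ERBB2). The titles give no collection day for the monolayers, so time in culture may differ between monolayers and spheroids. HCC1806 and ZR-75-30 were kept in RPMI medium and BT474 and CAL148 in DMEM, all with 10% fetal bovine serum, so that cell line and medium cannot be told apart. No drug or genetic change was given for any group. Nothing says that the 2 libraries of a group came from separate cultures, and the p-values below measure only the spread between these libraries, which may be technical.

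Collagen chains are modified in the endoplasmic reticulum and crosslinked outside the cell. Prolyl 4-hydroxylases make the 4-hydroxyproline that keeps the triple helix stable at body temperature, and lysyl hydroxylases make the hydroxylysine that carries sugars and feeds into crosslinks. Lysyl oxidases are copper enzymes that then oxidise lysine and hydroxylysine side chains in secreted collagen and elastin, the step that starts crosslinking. In breast tumours these enzymes are known for stiffening the matrix around the tumour, and LOX, P4HA1 and PLOD2 are textbook targets of the hypoxia-inducible factors.

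Because of that link, the promoters were read for ACGTG, a core of the element that hypoxia-inducible factors bind, on either strand. RefSeq promoter windows on GRCh38.p14, from 250 bases before to 50 bases after the start site, were used for 9 of the 10 genes, all but LOXL2. LOX had 3 start sites and LOXL3 had 2, and for each gene the site nearest the upstream end of the gene record was used. The other sites were not read. The P4HA2 window, chr5:132227042-132227341, lies within the gene record, which spans chr5:132191838-132295315 on the minus strand. ACGTG occurred in 3 of the 9, and in 21.4% of all 35116 promoter windows. The 250 bases before the start site are shown for these 3 genes and for LOXL4, the member with the widest range of levels, with each match in capitals (ACGTG, or CACGT where the match is on the other strand). All 4 genes lie on the minus strand, and the windows are chr5:122078260-122078509 for LOX, chr10:98268195-98268444 for LOXL4, chr10:73096867-73097116 for P4HA1 and chr3:146161185-146161434 for PLOD2.
LOX: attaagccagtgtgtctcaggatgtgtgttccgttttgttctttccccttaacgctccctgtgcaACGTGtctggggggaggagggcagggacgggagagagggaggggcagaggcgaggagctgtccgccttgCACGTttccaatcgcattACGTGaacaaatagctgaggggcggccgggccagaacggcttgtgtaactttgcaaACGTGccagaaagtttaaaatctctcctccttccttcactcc
LOXL4: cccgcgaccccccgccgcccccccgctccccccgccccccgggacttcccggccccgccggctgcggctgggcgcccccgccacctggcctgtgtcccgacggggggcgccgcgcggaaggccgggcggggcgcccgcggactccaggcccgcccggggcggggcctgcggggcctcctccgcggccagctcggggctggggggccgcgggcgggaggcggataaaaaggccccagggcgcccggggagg
P4HA1: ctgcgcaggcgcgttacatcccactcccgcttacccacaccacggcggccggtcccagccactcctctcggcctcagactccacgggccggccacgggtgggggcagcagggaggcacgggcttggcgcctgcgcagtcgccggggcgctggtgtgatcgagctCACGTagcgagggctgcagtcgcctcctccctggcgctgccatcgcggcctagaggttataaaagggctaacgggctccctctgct
PLOD2: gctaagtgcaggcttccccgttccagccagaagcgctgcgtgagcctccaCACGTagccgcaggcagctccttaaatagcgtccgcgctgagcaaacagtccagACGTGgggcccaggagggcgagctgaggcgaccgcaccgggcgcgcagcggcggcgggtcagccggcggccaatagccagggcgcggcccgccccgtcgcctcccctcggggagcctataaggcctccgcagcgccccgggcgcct
LOX held 4 matches, starting 185, 116, 98 and 42 bases before the start site. PLOD2 held 2, at 200 and 146 bases, and P4HA1 held 1, at 86 bases. None of the matches overlapped another. LOXL4 held none in a window that was 85.3% G and C, and neither did LOXL1, LOXL3, P4HA2, PLOD1 or PLOD3. With GCGTG, the other core, counted as well, 4 of the 9 promoters had a match, PLOD1 being the fourth, against 48.4% of all windows. A match of letters is a description and does not show binding.

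Levels are given as CPM, counts divided by library size and scaled with TMM factors over the 16 libraries. Library totals lay between 29696358 and 72489002 counts, so that 3 counts, taken as the detection floor, correspond to 0.0421 to 0.146 CPM. The replicates of HCC1806 monolayers stood apart: the log2 difference between them had an SD of 1.37 over genes, against 0.767 in the ZR-75-30 pair, 0.62 in the CAL148 pair and at most 0.322 in every other pair. Mitochondrial genes took 17.8% of the counts in HCC1806 monolayer replicate 1 and 0.768% in replicate 2, and 20.5% in ZR-75-30 replicate 2 against 1.96% in replicate 1. Comparisons without HCC1806 monolayers were therefore fitted without them, on 10 libraries, and those that need them are given with each monolayer library left out. All 5 epithelial markers were expressed in every group.

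**Figure D1:**
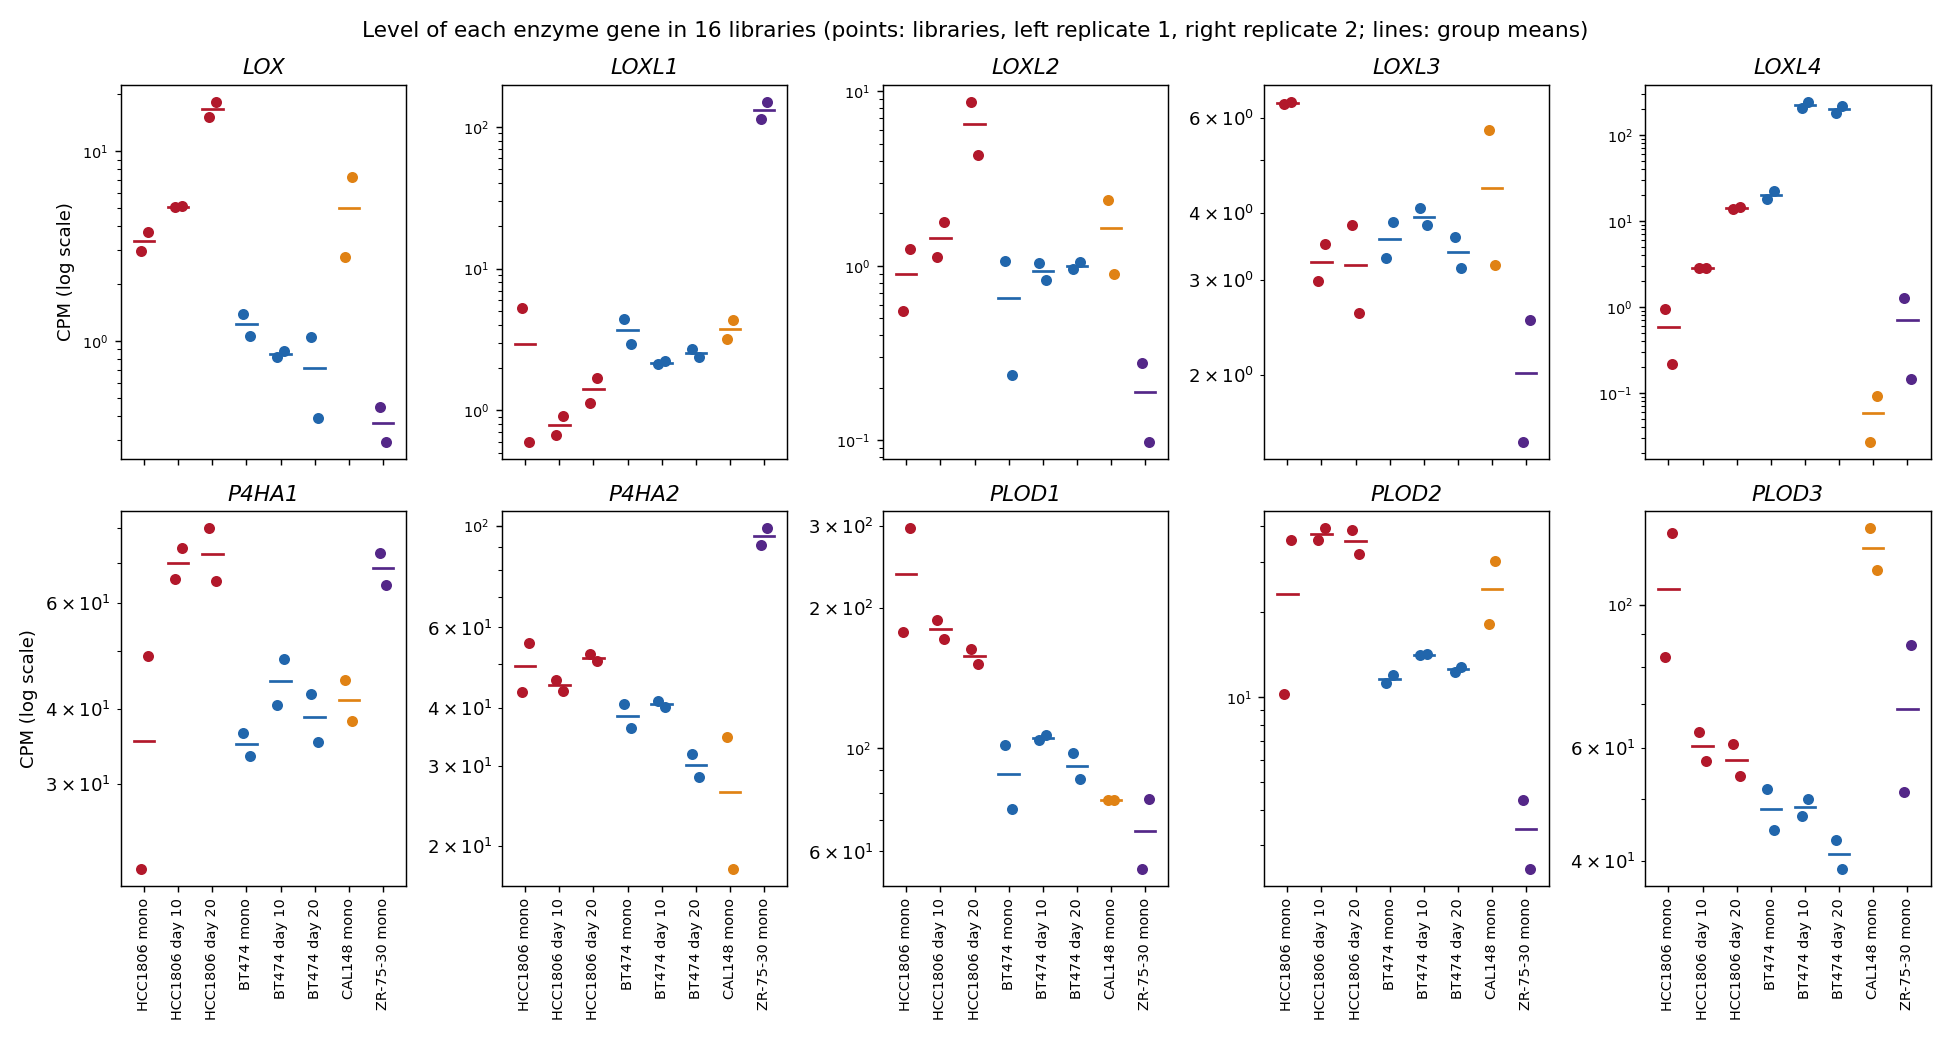
Level of each of the 10 enzyme genes in CPM (log axis, a separate scale per gene) in the 2 libraries of each of 8 groups, with points for libraries and lines for group means. LOXL4 reaches 205 to 242 CPM in BT474 day 10 spheroids, LOXL1 reaches 113 and 150 CPM in ZR-75-30, and LOX is highest in HCC1806 day 20 spheroids.

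LOXL4 had the widest range of the 10 genes. LOXL4 (ENSG00000138131, chr10:98247690-98268250, minus strand, GRCh38) encodes a secreted lysyl oxidase with scavenger receptor cysteine-rich domains. In BT474 it measured 17.9 and 22.3 CPM in monolayers, 205 and 242 CPM in day 10 spheroids, and 181 and 216 CPM in day 20 spheroids. All 4 spheroid libraries lay far above both monolayer libraries, while the day 10 and day 20 values overlapped. At day 10 it averaged 224 ± 26.4 CPM in spheroids and 20.1 ± 3.11 CPM in monolayers (SD, n = 2 each), a log2 fold change of 3.47 ± 0.13 (SE) or 11.1-fold (edgeR quasi-likelihood test, adjusted p = 3.06e-09). At day 20 it averaged 199 ± 24.8 CPM in spheroids, and the log2 fold change against monolayers was 3.30 ± 0.13 (edgeR adjusted p = 5.53e-09). LOXL4 passed the threshold, an adjusted p under 0.05, in every refit that was run of both comparisons. In bulk libraries a change in the share of cells that express a gene and a change in RNA per cell cannot be told apart.

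Among the 10 enzyme genes, LOXL4 alone was called in BT474 day 10 spheroids, where 12.2% of 20606 tested genes were called, 6.58% as higher. The median log2 fold change of the 10 was 0.19, against 0.00 over all tested genes. At an unadjusted p under 0.05 there were 4 of the 10, beside 5290 of the 20606 tested genes, and 3 of these 4 did not pass after adjustment. LOXL1, which is needed for elastic fibre upkeep, measured 2.11 and 2.23 CPM in day 10 spheroids against 4.40 and 2.95 CPM in monolayers (log2 fold change -0.76 ± 0.30, edgeR adjusted p = 0.126). P4HA1, a catalytic subunit of prolyl 4-hydroxylase, measured 40.6 and 48.4 CPM against 36.5 and 33.4 CPM (0.34 ± 0.13, edgeR adjusted p = 0.102). PLOD2, the hydroxylase of the lysines in collagen telopeptides, measured 14.0 and 14.2 CPM against 11.2 and 11.97 CPM (0.27 ± 0.12, edgeR adjusted p = 0.183). In none of these 3 did the libraries of the 2 groups overlap, which held for 6 of the 10 enzyme genes and 50.5% of all tested genes.

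In BT474 day 20 spheroids 2 of the 10 enzyme genes were called, with 14.6% of all tested genes called, 7.40% as higher and 7.24% as lower. Beside LOXL4, P4HA2, the other catalytic prolyl 4-hydroxylase subunit, fell. P4HA2 (ENSG00000072682) measured 31.7 and 28.3 CPM in day 20 spheroids against 40.9 and 36.2 CPM in monolayers, and 41.4 and 40.3 CPM in day 10 spheroids. Both day 20 libraries were the lowest of the 6 BT474 libraries. The log2 fold change against monolayers was -0.36 ± 0.10 (edgeR adjusted p = 0.024). The call was lost without monolayer replicate 1 (edgeR adjusted p = 0.0902), without day 20 replicate 2 (0.229) and in the fit of all 12 HCC1806 and BT474 libraries (0.79). The median log2 fold change of the 10 genes was -0.01.

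Between the spheroid ages in BT474, none of the 10 genes was called by edgeR, with 0.281% of all tested genes called. At an unadjusted p under 0.05 there were 2 of the 10, P4HA2 and PLOD3, beside 1913 of 20606 tested genes. DESeq2 called 1, P4HA2. P4HA2 had a log2 fold change of -0.44 ± 0.10 in day 20 against day 10 spheroids (edgeR adjusted p = 0.0899). PLOD3, which hydroxylates collagen lysines and also adds the sugars, measured 43.1 and 38.9 CPM at day 20 against 46.9 and 49.97 CPM at day 10 (-0.24 ± 0.10, edgeR adjusted p = 0.497). LOXL4 differed by -0.17 ± 0.11 (edgeR adjusted p = 0.707).

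**Figure D2:**
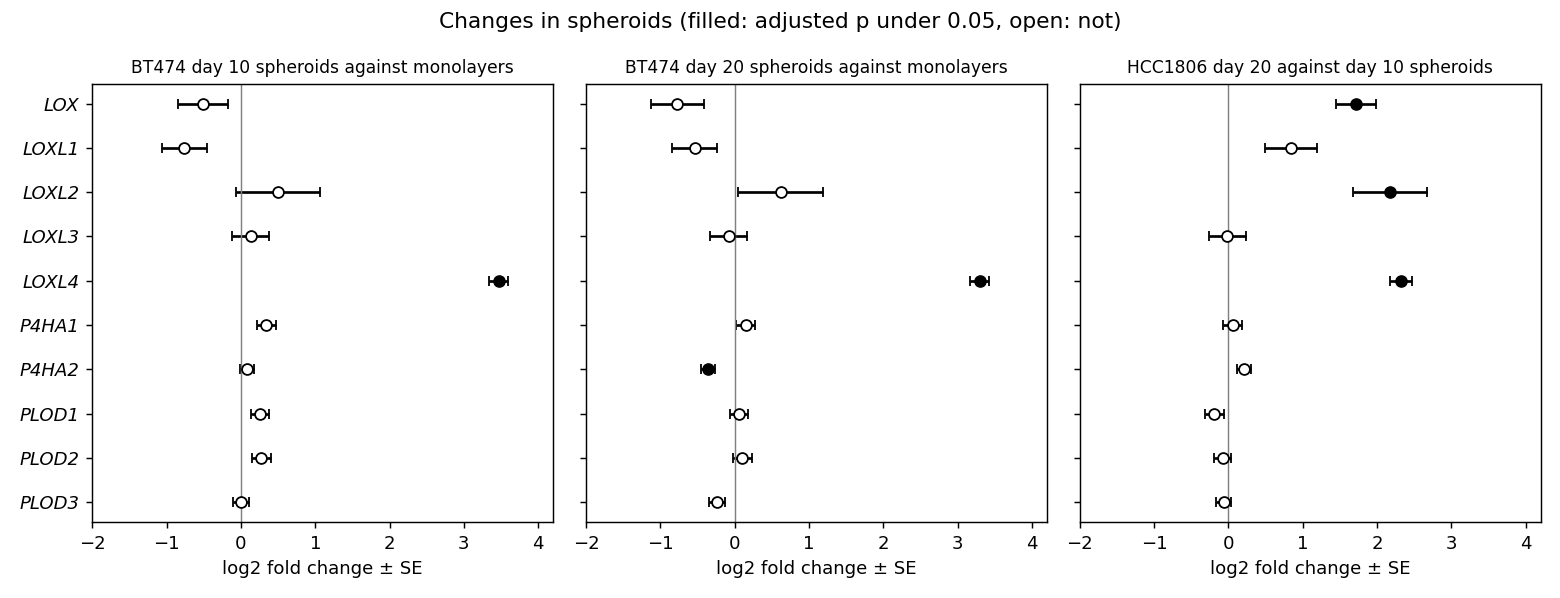
Log2 fold change ± SE of the 10 enzyme genes in BT474 day 10 and day 20 spheroids against monolayers and in HCC1806 day 20 against day 10 spheroids, with filled points for an adjusted p under 0.05. LOXL4 stands at 3.47 and 3.30 in BT474, and LOX, LOXL2 and LOXL4 are the filled points in HCC1806.

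In HCC1806 the lysyl oxidases LOX, LOXL2 and LOXL4 rose between the spheroid ages. They were 3 of the 10 enzyme genes, where 6.80% of all tested genes were called and 3.20% were called as higher. LOXL4 measured 13.8 and 14.4 CPM at day 20 against 2.82 and 2.83 CPM at day 10, so that both day 20 libraries lay above both day 10 libraries (log2 fold change 2.33 ± 0.15, 5.01-fold, edgeR adjusted p = 7.52e-07). LOX (ENSG00000113083), the founding member of the family, measured 15.1 and 18.1 CPM at day 20 against 5.04 and 5.13 CPM at day 10. Again the libraries did not overlap (1.71 ± 0.27, 3.28-fold, edgeR adjusted p = 0.00155). LOXL2 (ENSG00000134013), which crosslinks the collagen IV of basement membranes, measured 8.71 and 4.33 CPM at day 20 against 1.12 and 1.78 CPM at day 10 (2.18 ± 0.50, edgeR adjusted p = 0.0201). Its groups did not overlap, but the day 20 libraries differed widely from each other, and without day 20 replicate 1 the log2 fold change was 1.59.

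The 7 remaining enzyme genes were not called between the HCC1806 spheroid ages. Their log2 fold changes lay between -0.19 for PLOD1 and 0.84 for LOXL1, which measured 1.12 and 1.70 CPM at day 20 against 0.677 and 0.916 CPM at day 10 (edgeR adjusted p = 0.199). The hydroxylase genes P4HA1, PLOD2 and PLOD3 overlapped between the groups. The median over the 10 genes was 0.13, against 0.00 over all tested genes, and the libraries of 6 of them did not overlap, as for 49.9% of all tested genes.

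The calls of LOX and LOXL4 in HCC1806 held when any of the 4 spheroid libraries was left out, with edgeR adjusted p of at most 0.03 for LOX and 8.01e-05 for LOXL4. The LOXL2 call was lost without day 10 replicate 1 (edgeR adjusted p = 0.205), day 10 replicate 2 (0.0777) or day 20 replicate 1 (0.168). All 3 calls were lost in the fits that include the HCC1806 monolayer pair: with all 12 libraries of both lines the edgeR adjusted p was 0.653 for LOX, 1 for LOXL2 and 0.372 for LOXL4, and with the 6 HCC1806 libraries alone it was 1 for each. In both of those fits 0 of all tested genes were called. The fold changes themselves were nearly the same there, 2.32 for LOXL4 and 1.71 and 1.70 for LOX.

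Markers of other cells were set beside these results. Of the 11 fibroblast markers, 10 were under 1 CPM in every BT474 library, all but COL1A1, and 6 in every HCC1806 library. The other 5, COL1A1, COL3A1, LUM, THY1 and ACTA2, were above 1 CPM in some HCC1806 library. All 11 fibroblast markers summed to 92.1 and 102 CPM in BT474 day 10 spheroids and 89.4 and 78.8 CPM at day 20. The sum was 74.7 and 73.8 CPM in BT474 monolayers. COL1A1 made up nearly all of each BT474 sum, and DCN and PDGFRB were at 0 in every BT474 library. In HCC1806 the sum was 101 and 85.4 CPM at day 20 against 70.9 and 70.0 CPM at day 10. COL3A1 rose there, at 7.79 and 5.19 CPM against 0.49 and 0.733 CPM, and was the only 1 of 8 tested markers called. LUM measured 3.09 and 3.06 CPM at day 20 against 1.59 and 2.17 CPM at day 10 (edgeR adjusted p = 0.472), ACTA2 0.837 and 0.646 CPM against 2.08 and 1.78 CPM (edgeR adjusted p = 0.292), and DCN stayed at or under 0.837 CPM. Of the 4 leukocyte markers, LYZ rose in BT474 spheroids, to 15.5 and 18.8 CPM at day 10 and 24.9 and 24.3 CPM at day 20, against 0.356 and 0.283 CPM in monolayers, while PTPRC, the defining marker, was at 0 in every BT474 library. The 4 endothelial markers summed to 6.09 to 7.89 CPM in BT474 spheroids against 6.91 and 8.60 CPM in monolayers. Mitochondrial genes took 3.89% to 6.30% of the counts in BT474 spheroids against 2.31% and 2.43% in monolayers, and all 5 epithelial markers were lower in both HCC1806 day 20 libraries than in both day 10 libraries. Of these, 4 were called and KRT18 was not (edgeR adjusted p = 0.362), with a median log2 fold change of -0.42 over the 5. The part of these shifts in the enzyme results was not tested.

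The change between the spheroid ages was then compared between the lines, as the HCC1806 change minus the BT474 change. It differed for 3 of the 10 enzyme genes, LOXL4, LOX and P4HA2, all with a more positive change in HCC1806, with 2.67% of all tested genes called and 1.56% called in that direction. LOXL4 had a log2 change of 2.33 in HCC1806 and -0.17 in BT474, a difference of 2.49 ± 0.19 (edgeR adjusted p = 1.02e-05), and this call held without any one of the 8 spheroid libraries. LOX had 1.71 in HCC1806 and -0.26 in BT474, a difference of 1.97 ± 0.45 (edgeR adjusted p = 0.0321), and P4HA2 had 0.21 and -0.44, a difference of 0.65 ± 0.14 (edgeR adjusted p = 0.0218). Left out 1 at a time, every spheroid library but BT474 day 20 replicate 1 ended the LOX call (edgeR adjusted p of 0.062 to 0.154). Without BT474 day 20 replicate 1 the LOX call held, at a difference of 2.83. The P4HA2 call ended without either HCC1806 day 10 library, HCC1806 day 20 replicate 1, either BT474 day 10 library or BT474 day 20 replicate 2, with an edgeR adjusted p of at most 0.132. With all 12 libraries in the fit none of the 3 was called (edgeR adjusted p = 1 to the third decimal for each).

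As spheroids the lines differed in most genes, 70.7% of those tested at day 10 and 71.3% at day 20, and 7 and 9 of the 10 enzyme genes are to be read against those shares. At day 10 there were 5 higher and 2 lower in HCC1806, beside 37.5% and 33.2% of all tested genes, and at day 20 there were 7 higher and 2 lower, beside 37.7% and 33.6%. The sign differed by family member. At day 10 LOX was 5.93-fold higher in HCC1806 (5.04 and 5.13 CPM) than in BT474 (0.825 and 0.884 CPM), with an edgeR adjusted p of 3.92e-06. LOXL4 ran the other way, at 2.82 and 2.83 CPM in HCC1806 and 205 and 242 CPM in BT474, a log2 fold change of -6.30 ± 0.15 (edgeR adjusted p = 2.33e-13). By day 20 LOX was 23.3-fold higher in HCC1806, at 15.1 and 18.1 CPM against 1.04 and 0.392 CPM in BT474 (edgeR adjusted p = 1.87e-08). Without BT474 day 20 replicate 1 LOX was 42.1-fold higher. The BT474 day 20 values of LOX rest on 39 and 15 counts. The LOXL4 difference at day 20 was -3.81 ± 0.13 (edgeR adjusted p = 6.66e-12).

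All 3 lysyl hydroxylases and P4HA1 were higher in HCC1806 than in BT474 spheroids at both ages. PLOD2 measured 35.7 and 39.2 CPM in HCC1806 against 14.0 and 14.2 CPM in BT474 at day 10 (log2 fold change 1.42 ± 0.12, edgeR adjusted p = 1.19e-07), and the difference at day 20 was 1.51 ± 0.12. PLOD1, which hydroxylates lysines of the helix, measured 189 and 172 CPM against 104 and 107 CPM at day 10 (0.78 ± 0.12, edgeR adjusted p = 7.76e-05). PLOD3 differed by 0.32 ± 0.10 at day 10 (edgeR adjusted p = 0.0122), a call lost without HCC1806 day 10 replicate 1 (0.114) or BT474 day 10 replicate 1 (0.0986). P4HA2 was called at day 20, at 0.79 ± 0.10, and at day 10 it differed by 0.14 ± 0.10 (edgeR adjusted p = 0.198). LOXL1 was lower in HCC1806 at both ages, by -1.44 ± 0.34 at day 10 and -0.83 ± 0.32 at day 20 on the log2 scale (edgeR adjusted p = 0.00155 and 0.0318), and its day 20 call was lost without HCC1806 day 20 replicate 1 (0.206), BT474 day 20 replicate 1 (0.123) or BT474 day 20 replicate 2 (0.0588). LOXL3, at 2.61 to 4.08 CPM in the spheroids of both lines, was called at neither age. With all 12 libraries in the fit LOXL1, P4HA1 and PLOD3 were called at neither age.

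HCC1806 spheroids against HCC1806 monolayers rest on the monolayer pair whose replicates differ. At day 10 none of the 10 enzyme genes was called by edgeR, with 0.00% of 18869 tested genes called. An unadjusted p under 0.05 was found for 3 of the 10, beside 2915 of all tested genes. DESeq2 called 1 of the 10, beside 7.56% of all tested genes. At day 20 none was called by edgeR either, with 0.0106% of all tested genes called. An unadjusted p under 0.05 was found for 5 of the 10, beside 3256 of all tested genes. DESeq2 called 3 of the 10, beside 9.26% of all tested genes. LOXL4 measured 0.947 and 0.218 CPM in monolayers, from 24 and 8 counts, 2.82 and 2.83 CPM at day 10 and 13.8 and 14.4 CPM at day 20. Every spheroid library lay above both monolayer libraries, and the day 20 log2 fold change was 4.57 ± 0.76 (edgeR adjusted p = 0.109). LOX measured 2.96 and 3.72 CPM in monolayers, below all 4 spheroid libraries, and its day 20 log2 fold change was 2.24 ± 0.33 (edgeR adjusted p = 0.0987).

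Set against 1 monolayer library at a time, the day 20 changes kept their sign for LOX, LOXL2, LOXL3, LOXL4, P4HA1, PLOD1 and PLOD3. The day 20 log2 fold change of LOX was 2.46 against monolayer replicate 1 alone and 2.09 against replicate 2 alone, and that of LOXL4 was 3.87 and 5.93. PLOD2 gave 1.77 against replicate 1 and -0.08 against replicate 2, from 10.2 and 35.8 CPM in the monolayers, and LOXL1 gave -1.91 and 1.17, from 5.25 and 0.598 CPM. P4HA2 gave 0.22 and -0.17. For these 3 genes the sign of the spheroid change depends on which monolayer library is used. LOXL3 was steady between the monolayer libraries, at 6.35 and 6.42 CPM, and higher there than in all 4 HCC1806 spheroid libraries, at 2.61 to 3.79 CPM (day 20 log2 fold change -1.06 ± 0.39, edgeR adjusted p = 0.263). With 1 monolayer library left out, 7 of the 10 enzyme genes were called at day 20 without replicate 1, where 48.2% of all tested genes were called, and 8 without replicate 2, where 59.8% were. At day 10 there were 6 without replicate 1, beside 46.4% of all tested genes, and 7 without replicate 2, beside 59.6%. In each such fit the lone monolayer library is assumed to vary like the spheroid groups.

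**Figure D3:**
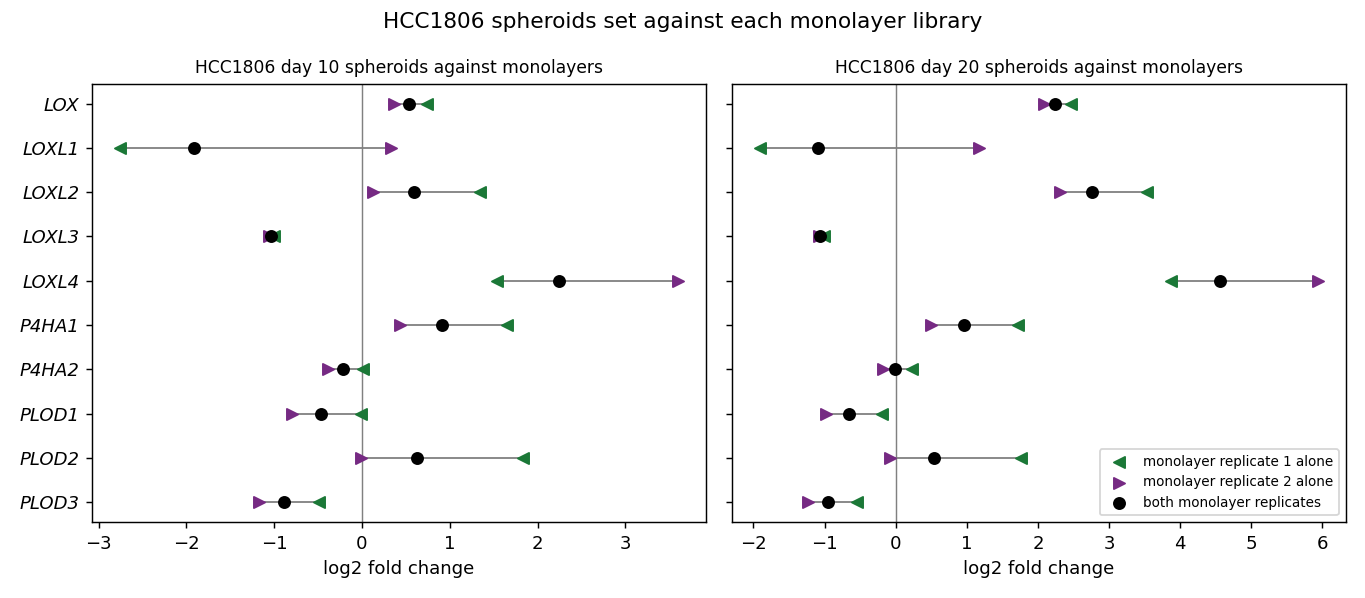
Log2 fold change of the 10 enzyme genes in HCC1806 day 10 and day 20 spheroids against both monolayer libraries (circles) or against one of them (triangles). LOX and LOXL4 lie right of 0 with either library, and LOXL1 and PLOD2 lie on both sides of 0.

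The spheroid effect was compared between HCC1806 and BT474 in the 12-library fit. At day 10 none of the 10 enzyme genes was called by edgeR, with 1.35% of all tested genes called. An unadjusted p under 0.05 was found for 2 of the 10, beside 3505 of 20929 tested genes. DESeq2 called 1 of the 10, beside 10.2% of all tested genes. At day 20 LOX was called, where 2.77% of all tested genes were, with an HCC1806 effect 3.07 ± 0.61 larger on the log2 scale than the BT474 effect (edgeR adjusted p = 0.0394). That call was lost without either HCC1806 day 20 library, either BT474 monolayer library or either BT474 day 20 library (edgeR adjusted p of 0.0718 to 0.177), and without BT474 day 20 replicate 1 the value was 3.94. Without HCC1806 monolayer replicate 1 the count was 5 of the 10 at day 20 and 4 at day 10, beside 29.6% and 28.1% of all tested genes. Without replicate 2 it was 6 and 7, beside 45.4% and 44.8%. The LOXL4 spheroid effects of the lines differed by 1.36 ± 0.62 at day 20 (edgeR adjusted p = 0.289), which does not show that they are alike.

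The 4 lines grown as monolayers were compared in a single F test with 3 degrees of freedom. It called 6 of the 10 enzyme genes, LOX, LOXL1, LOXL4, P4HA2, PLOD1 and PLOD2, with 33.9% of 19594 tested genes called. LOXL1 (ENSG00000129038, chr15:73925989-73952137, plus strand) measured 113 and 150 CPM in ZR-75-30, against 0.598 to 5.25 CPM in the monolayers of the other lines (edgeR adjusted p = 0.00509). Both ZR-75-30 libraries stood far above all 14 others of the series. LOXL1-AS1, an antisense gene that overlaps it, was at 16.2 and 11.99 CPM in ZR-75-30 and at 15.1 and 13.6 CPM in BT474 monolayers, where LOXL1 was at 4.40 and 2.95 CPM. LOXL4 was highest in BT474 monolayers and had 1 and 4 counts in the CAL148 libraries, near the floor (edgeR adjusted p = 0.00736). It had 46 and 3 counts in ZR-75-30, so that its replicates there differ too much to rank it against HCC1806.

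P4HA2 was highest in ZR-75-30, at 90.9 and 98.6 CPM, and at 17.9 to 55.5 CPM in the other monolayers (edgeR adjusted p = 0.0388). PLOD2 was lowest in ZR-75-30, at 4.34 and 2.48 CPM, against 10.2 to 35.8 CPM in the others (edgeR adjusted p = 0.0498). PLOD1 was highest in HCC1806, at 178 and 297 CPM, against 55.1 to 102 CPM in the others (edgeR adjusted p = 0.0187). LOX measured 2.96 and 3.72 CPM in HCC1806, 2.77 and 7.24 CPM in CAL148, 1.38 and 1.06 CPM in BT474 and 0.446 and 0.292 CPM in ZR-75-30 (edgeR adjusted p = 0.0271), with overlap only between HCC1806 and CAL148. PLOD3 was at 131 and 113 CPM in CAL148 and at 44.6 to 129 CPM in the others (edgeR adjusted p = 0.0772), P4HA1 had an adjusted p of 0.256 by edgeR, LOXL2 0.206 and LOXL3 0.192. The LOXL1 and LOXL4 calls held without any one of the 8 monolayer libraries. Those of LOX, P4HA2, PLOD1 and PLOD2 were each lost without either BT474 monolayer library, CAL148 replicate 2 or ZR-75-30 replicate 1. Without CAL148 replicate 1 all of these but LOX were lost, and without ZR-75-30 replicate 2 all but PLOD1. The edgeR adjusted p then reached 0.133 for P4HA2, 0.111 for LOX, 0.201 for PLOD2 and 0.0665 for PLOD1, so that 2 or 3 of the 10 were called without any one BT474, CAL148 or ZR-75-30 library, beside 14.4% to 18.8% of all tested genes.

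Over the 8 groups, LOXL4, LOXL1, LOX and LOXL2 spanned far wider ranges than the hydroxylases. LOXL4 averaged 224 CPM in BT474 day 10 spheroids and 0.0594 CPM, 5 counts in all, in CAL148. The highest group mean was 165 times the lowest for LOXL1, 44.9 times for LOX, 34.7 times for LOXL2 and 11.0 times for PLOD2, and 2.08 to 3.61 times for LOXL3, P4HA1, P4HA2, PLOD1 and PLOD3. In the order of LOX, HCC1806 day 20 spheroids came first and did not overlap the next group, while HCC1806 day 10 spheroids (5.04 and 5.13 CPM) overlapped CAL148. In the order of LOXL2, HCC1806 day 20 spheroids again led, and no neighbours among the 3 BT474 groups and the HCC1806 monolayers were separated. In the order of P4HA1, HCC1806 day 20 spheroids, HCC1806 day 10 spheroids and ZR-75-30 overlapped at 64.4 to 80.0 CPM, above the rest at 21.7 to 49.0 CPM. PLOD2 had its highest means in HCC1806 day 10 and day 20 spheroids, which overlapped. HCC1806 monolayer replicate 2, at 35.8 CPM, lay within the range of both, and replicate 1 was at 10.2 CPM. PLOD3 was highest in CAL148, which overlapped HCC1806 monolayers.

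**Figure D4:**
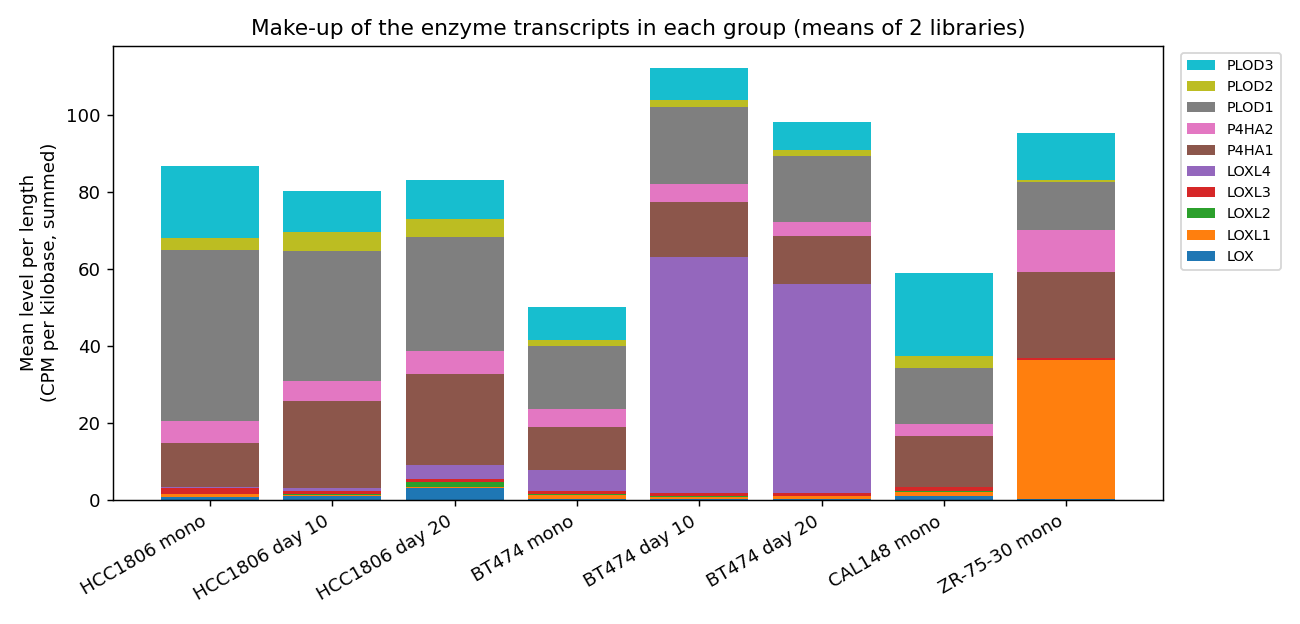
Mean level per length (CPM per kilobase of gene length) of the 10 enzyme genes, stacked, in each of 8 groups with 2 libraries each. LOXL4 makes up 54.5% and 55.3% of the sum in BT474 day 10 and day 20 spheroids, and LOXL1 37.9% in ZR-75-30.

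Levels of different genes were compared per length, as CPM per kilobase (RPKM). PLOD1 was the highest of the 10 in all 3 HCC1806 groups, with 44.6 RPKM in monolayers, 33.9 RPKM at day 10 and 29.6 RPKM at day 20, and in BT474 monolayers with 16.5 RPKM. LOXL4 was the highest in BT474 spheroids, at 61.2 RPKM at day 10 and 54.4 RPKM at day 20. PLOD3 led in CAL148 with 21.6 RPKM and LOXL1 in ZR-75-30 with 36.2 RPKM. The leading gene of each group was the same by the FPKM values that the authors deposited. Within a library those values were proportional to the RPKM, so this sameness was largely given and does not check the gene lengths.

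Within the lysyl oxidase family a single gene made up nearly the whole per-length sum in BT474 spheroids and in ZR-75-30. LOXL4 made up 96.3% to 97.4% of the family's RPKM in the 4 BT474 spheroid libraries, against 67.2% and 76.1% in BT474 monolayers. LOXL1 made up 97.4% and 98.3% in ZR-75-30. In HCC1806 the family's leading gene was LOXL3 in both monolayer libraries, LOX at day 10 and LOXL4 at day 20, with shares of 30.2% to 56.9%. The summed family level was 9.19 and 9.04 RPKM in HCC1806 day 20 spheroids, against 2.75 and 3.06 RPKM at day 10. P4HA1 was above P4HA2 per length in every library, at 57.8% to 85.4% of their sum. That order rests on table lengths of 3093 bases for P4HA1 and 8502 for P4HA2, which were not checked. By CPM, P4HA2 was above P4HA1 in both monolayer libraries of HCC1806, BT474 and ZR-75-30. It was below P4HA1 in CAL148, HCC1806 spheroids and BT474 day 20 spheroids, and the BT474 day 10 replicates differed. PLOD1 led the lysyl hydroxylases in all HCC1806 and BT474 libraries and PLOD3 in both CAL148 libraries, and in ZR-75-30 the replicates differed in which of the pair led.

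Across the 8 group means of log2 CPM, LOX was most alike LOXL2 (Pearson r = 0.89) and PLOD2 (r = 0.86), LOXL1 ran opposite to PLOD2 (r = -0.88) and LOXL4 opposite to PLOD3 (r = -0.87). Outside the 10, and among 13635 genes with a mean of at least 5 CPM in some group, the genes closest to LOXL4 were UBE2V1P2, MAF and SHC2 (r of 0.97 each). Those closest to LOX were STARD9, CEP19 and RASSF10 (r of 0.99, 0.97 and 0.97), and those closest to LOXL1 were S100A13, AC245297.3 and NSFL1C (r of 0.99 each). These are descriptions over 8 points from 4 lines, and groups of the same line share their genome.

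Of 26 other genes of collagen maturation, 25 were tested. In BT474 day 10 spheroids 2 were higher and 4 lower, beside 6.58% and 5.67% of all tested genes, with a median log2 fold change of 0.04 against 0.00 over all tested genes. PPIB, a prolyl isomerase of the collagen hydroxylation complex, rose by 0.34 ± 0.08 (edgeR adjusted p = 0.0109), and SEC23A, a coat protein of the vesicles that carry procollagen, was lower by -0.55 ± 0.08 (edgeR adjusted p = 0.000411). P3H4, a partner of PLOD1 in collagen lysine hydroxylation, was lower by -0.60 ± 0.15 (edgeR adjusted p = 0.0163). At day 20 in BT474, 1 was higher and 3 were lower, beside 7.40% and 7.24% of all tested genes, SEC23A again among them (-0.61 ± 0.08, edgeR adjusted p = 0.00017). In HCC1806 day 20 against day 10 spheroids 1 of the 25 was called, as lower, beside 3.60% of all tested genes. It was P4HB, the partner subunit of P4HA1 and P4HA2, with 490 CPM against 700 CPM (-0.51 ± 0.07, edgeR adjusted p = 0.000598). Between the lines, 22 of the 25 were called at day 10, 19 of them higher in HCC1806, where 70.7% of all tested genes were called and 37.5% were higher. Their median was 1.65, against 0.08 over all tested genes. The prolyl 3-hydroxylase P3H3 averaged 37.1 CPM in HCC1806 against 0.0944 CPM in BT474, and FKBP10, a collagen chaperone, 21.8 CPM against 0.105 CPM.

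Of 24 substrate genes, the collagens and elastin, 22 were tested. In BT474 day 10 spheroids 6 were higher and 0 lower, beside 6.58% and 5.67% of all tested genes, with a median of 0.28 against 0.00 over all tested genes. COL17A1, a hemidesmosome collagen, measured 9.27 and 9.67 CPM against 1.76 and 2.69 CPM in monolayers (2.08 ± 0.16, edgeR adjusted p = 7.89e-06), and COL7A1, the anchoring fibril collagen, averaged 43.9 CPM against 14.0 CPM (1.64 ± 0.12, edgeR adjusted p = 1.52e-06). At day 20 in BT474, 5 were higher and 0 lower, beside 7.40% and 7.24% of all tested genes. In HCC1806 day 20 against day 10 spheroids 4 were higher and 1 lower, beside 3.20% and 3.60% of all tested genes, with a median of 0.09 against 0.00. The fibrillar collagens COL5A2, at 151 and 150 CPM against 44.0 and 42.0 CPM (1.81 ± 0.24, edgeR adjusted p = 0.0024), and COL3A1, at 7.79 and 5.19 CPM against 0.49 and 0.733 CPM (3.42 ± 0.41, edgeR adjusted p = 0.000189), rose there with LOX, LOXL2 and LOXL4. Of the basement membrane collagens, COL4A3 rose by 2.05 ± 0.41 (edgeR adjusted p = 0.00796) and COL4A4 by 1.14 ± 0.23 (edgeR adjusted p = 0.00852), while COL4A2 was lower by -0.57 ± 0.14 (edgeR adjusted p = 0.0242).

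Of 20 genes of the hypoxia response, all were tested. In BT474 day 10 spheroids 6 were higher and 1 lower, beside 6.58% and 5.67% of all tested genes, with a median of 0.16. At day 20 there were 5 higher and 4 lower, beside 7.40% and 7.24%, with a median of 0.04. The median over all tested genes was 0.00 in both. VEGFA, the angiogenic growth factor, averaged 105 CPM in BT474 day 10 spheroids against 54.3 CPM in monolayers (0.95 ± 0.12, edgeR adjusted p = 0.000211), and CA12, a carbonic anhydrase, was lower, at 69.5 CPM against 138 CPM (edgeR adjusted p = 0.000133). In HCC1806 day 20 against day 10 spheroids 5 of the 20 were higher and 0 lower, beside 3.20% and 3.60% of all tested genes, with a median of 0.23 against 0.00 over all tested genes. VEGFA averaged 463 CPM at day 20 against 217 CPM at day 10 (1.10 ± 0.12, edgeR adjusted p = 9.02e-05), and BNIP3, a mitophagy receptor, rose by 0.74 ± 0.11 (edgeR adjusted p = 0.000864). Among the enzyme genes whose promoters hold ACGTG, LOX had a log2 fold change of 1.71 in the same comparison, P4HA1 0.06 and PLOD2 -0.08. LOXL4, without a match, had 2.33, and LOXL2, without a promoter window, had 2.18. The other enzyme genes without a match lay between -0.19 for PLOD1 and 0.84 for LOXL1. A tie between the motif and these changes was not tested.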

How the data were processed

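Sample titles gave the groups, since the treatment label reads as monolayer in every sample, the 8 spheroid libraries included. Per the labels' protocols, poly(A) RNA was read as paired 150 bp reads. Per the submitters' processing notes the tools were HISAT2 2.2.1 and featureCounts 2.0.6 on GRCh38, with the strand setting not given in the sources used here. The counts per gene are the authors' deposited raw counts, and the FPKM values are the authors' own, used only beside the per-length order. Low counts were mostly even, and whether both mates of a pair were counted was not tested. Where genes overlap (SRFBP1 with LOX, LOXL1-AS1 with LOXL1, ENTPD4 with LOXL2, HTRA2 and DOK1 with LOXL3, PDLIM4 with P4HA2, ZNHIT1 with PLOD3), reads may be split or lost, which was not tested.

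From the counts, edgeR 4.0.16 in R 4.3.3 was run (TMM scaling, filterByExpr with a minimum count of 10 and total of 15, robust quasi-likelihood fit on group, Benjamini-Hochberg adjustment over all tested genes, called at an adjusted p under 0.05). An SE is the log2 fold change divided by the square root of F. Comparisons without HCC1806 monolayers used 10 libraries, HCC1806 spheroids against monolayers 6, line differences in the spheroid effect 12, and the 4 lines as monolayers 8. The code was tested on simulated data. Alternatives were DESeq2 1.42.0, DESeq2 size factors, no count filter, a replicate block, other libraries in the fit, and leaving out each library. The enzyme genes, the gene lists, the markers and the choice of libraries in each fit were chosen with earlier results of these data known. From the lists, up to 4 called genes per direction with at least 5 CPM were eligible to be named. Promoters are from RefSeq.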

Additional observations from a re-analysis of the deposited data

Results flagged for a closer look

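For 4 results the change differed between HCC1806 and BT474 by a test of the difference itself. That test called 2.67% of all tested genes for the change between spheroid ages and 2.77% for the day 20 spheroid effect. Between day 20 and day 10 spheroids, the HCC1806 change minus the BT474 change was 2.49 on the log2 scale for LOXL4, 1.97 for LOX and 0.65 for P4HA2. For day 20 spheroids against monolayers, the HCC1806 effect exceeded the BT474 effect by 3.07 for LOX. As described above, both LOX calls and the P4HA2 call were lost when some single libraries were left out. No call between the spheroid ages was kept with all 12 libraries in the fit. The LOXL4 difference rests on HCC1806 values of 13.8 and 14.4 CPM at day 20 against 2.82 and 2.83 CPM at day 10, and on BT474 values of 181 and 216 CPM at day 20 against 205 and 242 CPM at day 10. For P4HA2 the larger change was the BT474 one, -0.44 against 0.21 in HCC1806. The P4HA2 difference rests on 52.5 and 50.7 CPM at day 20 against 46.0 and 43.7 CPM at day 10 in HCC1806, and on 31.7 and 28.3 CPM against 41.4 and 40.3 CPM in BT474.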

How the results depend on the processing

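Outside the F test of the 4 monolayer lines, refits gave 256 values for the 26 called results of single enzyme genes. Of these, 209 stayed called with the same sign, 47 kept the sign without a call, and 0 changed sign. For the 6 genes called by the F test, 78 refits kept 53 calls and lost 25. Of 84 uncalled results outside that test, 31 were tallied, those with an unadjusted p under 0.05 and all of HCC1806 spheroids against monolayers, and 53 were not. For the 31, 319 refits gave 258 values on the same side, 51 that were called with the same sign, and 10 of the opposite sign. Among the last, P4HA2 in HCC1806 day 20 spheroids against monolayers was at 0.0243 with no count filter, 0.0533 with all 12 libraries of both lines and 0.0594 with all 16, and ranged from -0.17 to 0.22 with 1 library left out. With 1 library left out the day 10 change ranged from -0.39 to 0.0098 for P4HA2, from -2.76 to 0.33 for LOXL1 and from -0.0106 to 1.84 for PLOD2, and the day 20 change from -1.91 to 1.17 for LOXL1 and from -0.0824 to 1.77 for PLOD2.

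The number of the 10 enzyme genes called moved as follows. How many of all tested genes were called also depends on the setting, so these counts show only how the calls moved. With no count filter it was 3 for BT474 day 10 spheroids against monolayers, 1 for BT474 day 20 against day 10, and 2 for HCC1806 day 20 spheroids against monolayers. With DESeq2 it was 1 for BT474 day 20 against day 10, 1 and 3 for HCC1806 day 10 and day 20 spheroids against monolayers, and 1 for the line difference in the day 10 effect. With all 12 libraries in the fit it was 1 for BT474 day 20 spheroids against monolayers, 0 for HCC1806 day 20 against day 10 and for the line difference in that change, 4 for HCC1806 against BT474 at day 10, and 1 and 4 for HCC1806 day 10 and day 20 spheroids against monolayers. With the 6 HCC1806 libraries alone it was 0 for HCC1806 day 20 against day 10. With all 16 libraries it was 2 for HCC1806 day 20 spheroids against monolayers, 0 for the line difference in the day 20 effect and 10 for the 4 lines as monolayers, where 61.8% of all tested genes were called. With all 12 libraries, 27 genes of the whole table were called in BT474 day 10 spheroids in place of 2524, 49 at day 20 in place of 3017, and 0 in HCC1806 day 20 against day 10 in place of 1402. That fit includes the HCC1806 monolayer pair.

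With each library left out in turn, the number called ranged from 1 to 3 in BT474 day 10 and in BT474 day 20 spheroids against monolayers, from 2 to 3 in HCC1806 day 20 against day 10, from 6 to 7 and from 8 to 9 for HCC1806 against BT474 at day 10 and day 20, from 1 to 3 for the line difference in the day 20 against day 10 change, from 0 to 7 and from 0 to 8 in HCC1806 day 10 and day 20 spheroids against monolayers, from 0 to 7 and from 0 to 6 for the line difference in the day 10 and day 20 effect, and from 2 to 8 for the 4 lines as monolayers. The share of all tested genes called ranged alongside, from 0.00% to 59.6% and 59.8% in HCC1806 day 10 and day 20 spheroids against monolayers, from 0.0356% to 44.8% and from 0.0489% to 45.4% for the line difference in the day 10 and day 20 effect, and from 14.4% to 49.5% for the 4 lines. For BT474 day 20 against day 10 it was 0 throughout.

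Replicate numbers are shared between groups, and the correlations of the replicate differences ranged from -0.55 to 0.15. The -0.55 was between HCC1806 and ZR-75-30 monolayers, where the libraries with 17.8% and 20.5% mitochondrial counts carry opposite numbers. What lies behind that value was not tested. The main fits did not treat the number as a pairing. With the replicate number as a block, the count called was 3 for the 4 lines as monolayers and 0 for the line difference in the day 20 effect, where the edgeR adjusted p of LOX was 0.0714, and no other count moved by over 1.5 times.

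Depth limits LOXL4 in CAL148, at 1 and 4 counts, LOXL2 in ZR-75-30 and LOXL4 in HCC1806 monolayers. It also limits LOX in ZR-75-30, at 16 and 6 counts, and in BT474 day 20 spheroids, at 39 and 15 counts. Intervals were not drawn from counts, since reads without molecular identifiers are not independent molecules. With 2 libraries in a group, a missing call does not show that levels were alike.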
